A study of Mus musculus with 14 samples.

Results

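The cellular handling of iron was followed through 9 transcripts in 4T1 spheroids, out of 19525 genes in the count table. The genes were chosen by name: Tfrc and Slc11a2 (uptake), Fth1 and Ftl1 (storage), Slc40a1 (export), Cp (ferroxidase), Ireb2 and Aco1 (iron regulatory proteins) and Hmox1 (heme breakdown). Cp, ceruloplasmin, was selected on its measured values in these libraries, so its levels and fold changes are a description and carry no test. The other 8 were chosen by function with earlier results of these libraries known, and adjusted p-values over all genes take no account of that choice.

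The cells were 4T1, a triple-negative mammary cancer line of the mouse, grown as tumor spheroids for 5 days in a lung-like medium. Control spheroids carried the hairpin shSCR and grew with 700 µM aspartate (ASP shSCR, replicates 1 to 4) or without added aspartate (NoASP shSCR, replicates 2 to 4). Spheroids with a hairpin against Grin2d, an NMDA receptor subunit (ASP shGRIN2D, replicates 1 to 3), or against Dhps, deoxyhypusine synthase (ASP shDHPS, replicates 1 to 4), grew with 700 µM aspartate in each case. Every group thus carried a lentiviral hairpin vector in a selected, polyclonal population, and neither knockdown was grown without aspartate. The labels hold no other hairpin for either target. Loss of the target therefore cannot be told apart from other effects of its hairpin or from differences between transduced populations. Polyadenylated RNA came from the cytosolic lysate of the spheroids, and the study's methods describe independent spheroid pellets. They do not say that the pellets came from separate transductions. The question was whether aspartate, the NMDA receptor or the hypusination of the translation factor eIF5A changes these transcripts.

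Depth lay between 12731123 and 23231378 counts per library, and levels are given as CPM, which relate each count to the TMM-scaled total of its library. As a check of the labels, Dhps averaged 19.4 CPM (SD 2.28, n = 4) in ASP shSCR against 6.93 CPM (SD 1.74, n = 4) in ASP shDHPS, a log2 difference of -1.48 (SE 0.15; edgeR, Benjamini-Hochberg adjusted p = 8.31e-06). Grin2d was scarce, with a mean of 3.60 CPM (SD 0.42, n = 4) in ASP shSCR against 2.46 CPM (SD 0.59, n = 3) in ASP shGRIN2D, and this difference did not pass the test (log2 -0.55, SE 0.28; edgeR, Benjamini-Hochberg adjusted p = 0.516). The libraries did not overlap, at 3.23 to 4.16 CPM against 2.06 to 3.13 CPM. The paper describes a separate check of this knockdown in 4T1 spheroids by quantitative PCR. All 7 measured epithelial markers of 8 listed were present, with summed levels of 4356 to 4484 CPM in ASP shSCR, 4327 to 4484 in NoASP shSCR, 3549 to 4152 in ASP shDHPS and 3351 to 3608 in ASP shGRIN2D. Of the 9 leukocyte markers, 7 were measured, with sums of 12.9 to 23.1 CPM in ASP shSCR, 16.6 to 20.8 in NoASP shSCR, 15.1 to 17.3 in ASP shGRIN2D and 20.7 to 24.2 in ASP shDHPS, most of it Cd68 and Cd14, while the defining markers Ptprc, Csf1r, Itgam and Cd163 stayed under 1 CPM. For cells that secrete ceruloplasmin, the hepatocyte list had 1 measured marker of 6, Apoa1, which did not exceed 0.117 CPM, and erythroid and endothelial sums stayed under 1 CPM. Among 3 measured fibroblast markers of 6, Pdgfra averaged 29.1 CPM, whereas Col1a1 averaged 0.58 CPM and Dcn 0.0076 CPM. The part of these marker levels in the results was not tested.

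The libraries numbered 2 of both shSCR groups stood apart. On the first principal component, which held 26.1% of the variance, they lay at -31.8 (ASP) and -24.3 (NoASP), the ASP shDHPS libraries between 10.7 and 30.8 and all others between -8.59 and 7.58. Within their own groups these 2 libraries had the highest Cp and the lowest Tfrc, Fth1 and Ftl1. For Cp and for named calls at 5 CPM or more, it is therefore stated whether leaving such a library out changed the result. Fold changes of other members that did not pass the test, those of Ftl1 included, are given with these libraries in the fit.

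Iron enters most cells as transferrin bound to the transferrin receptor, crosses the endosomal membrane through Slc11a2 (DMT1), is stored within a shell of ferritin heavy and light chains and leaves through ferroportin (Slc40a1). The iron regulatory proteins IRP1 (Aco1) and IRP2 (Ireb2) bind a stem-loop, the iron-responsive element, when cytosolic iron is low. Bound to the 5′ UTR of ferritin or ferroportin mRNA the proteins block translation, and bound to the 3′ UTR of Tfrc mRNA they protect it from decay. Ferritin, ferroportin and Hmox1 genes are also transcriptional targets of NRF2 and BACH1. Deoxyhypusine hydroxylase, which acts after Dhps on eIF5A, is itself an iron enzyme.

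The iron-responsive hairpins found in the members are shown for the 4 genes in which a search had a match. The other 5 had no match in that search. A script searched both UTRs of GENCODE mouse transcripts for an unpaired C, 5 bases that pair fully with the 5 after the loop (G with T allowed), and a 6-base loop of CAGTG followed by A, C or T, on the sense strand. The loop is in capitals, written 5′ to 3′ as DNA in 28 bases.
Tfrc, 3′ UTR, hairpin at chr16:32631220-32631247 (+): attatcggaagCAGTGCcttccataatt
Tfrc, 3′ UTR, hairpin at chr16:32631599-32631626 (+): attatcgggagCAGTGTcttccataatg
Tfrc, 3′ UTR, hairpin at chr16:32631664-32631691 (+): tatatcggagaCAGTGAtctccatatgt
Tfrc, 3′ UTR, hairpin at chr16:32631711-32631738 (+): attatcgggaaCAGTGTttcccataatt
Fth1, 5′ UTR, hairpin at chr19:9982733-9982760 (+): tcctgcttcaaCAGTGCttgaacggaac
Ftl1, 5′ UTR, hairpin at chr7:45459779-45459806 (-): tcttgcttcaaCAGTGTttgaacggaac
Slc40a1, 5′ UTR, hairpin at chr1:45925465-45925492 (-): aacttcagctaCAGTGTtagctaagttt

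Coordinates are of GRCm38, the build of the reference transcripts, whereas the counts were made on GRCm39. The Fth1 and Ftl1 hairpins were identical at 26 of 28 positions. Of 21767 protein-coding genes with a complete coding transcript, 119 (0.547%) held such a hairpin, 21 (0.0965%) in the 5′ UTR and 98 (0.45%) in the 3′ UTR. Cp, Slc11a2, Ireb2, Aco1 and Hmox1 had no match, which says only that these letters are not in their UTRs, and an element with an extra bulge or another loop would be missed. The search therefore does not decide whether Slc11a2 or any other of these genes has an iron-responsive element. The deposited values are mRNA counts and hold no measure of binding to these hairpins or of translation.

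Ferritin transcripts were among the most abundant in the spheroids. By mean CPM, Fth1 ranked 3 and Ftl1 ranked 9 of 19525 genes, followed among the members by Tfrc (728), Cp (1788), Ireb2 (2125), Hmox1 (4243), Aco1 (4544), Slc11a2 (5963) and Slc40a1 (9337). Per kilobase of 1 reference transcript, levels in ASP shSCR were 7904 CPM for Fth1 and 5136 for Ftl1, 42.6 for Tfrc, 36.2 for Cp, 21.6 for Hmox1, 19.2 for Ireb2, 12.9 for Aco1, 6.33 for Slc11a2 and 2.54 for Slc40a1. Per length, both storage transcripts thus exceeded all other members. Slc40a1, the only known exporter of ferrous iron from mammalian cells, was the scarcest member, with 76 to 251 counts per library, so that counting error weighs most on it. Pseudogene copies listed in the table held 1.13% of the Ftl1 counts and 0.0151% of the Fth1 counts, so the division of reads among copies could move both genes little.

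**Figure D1:**
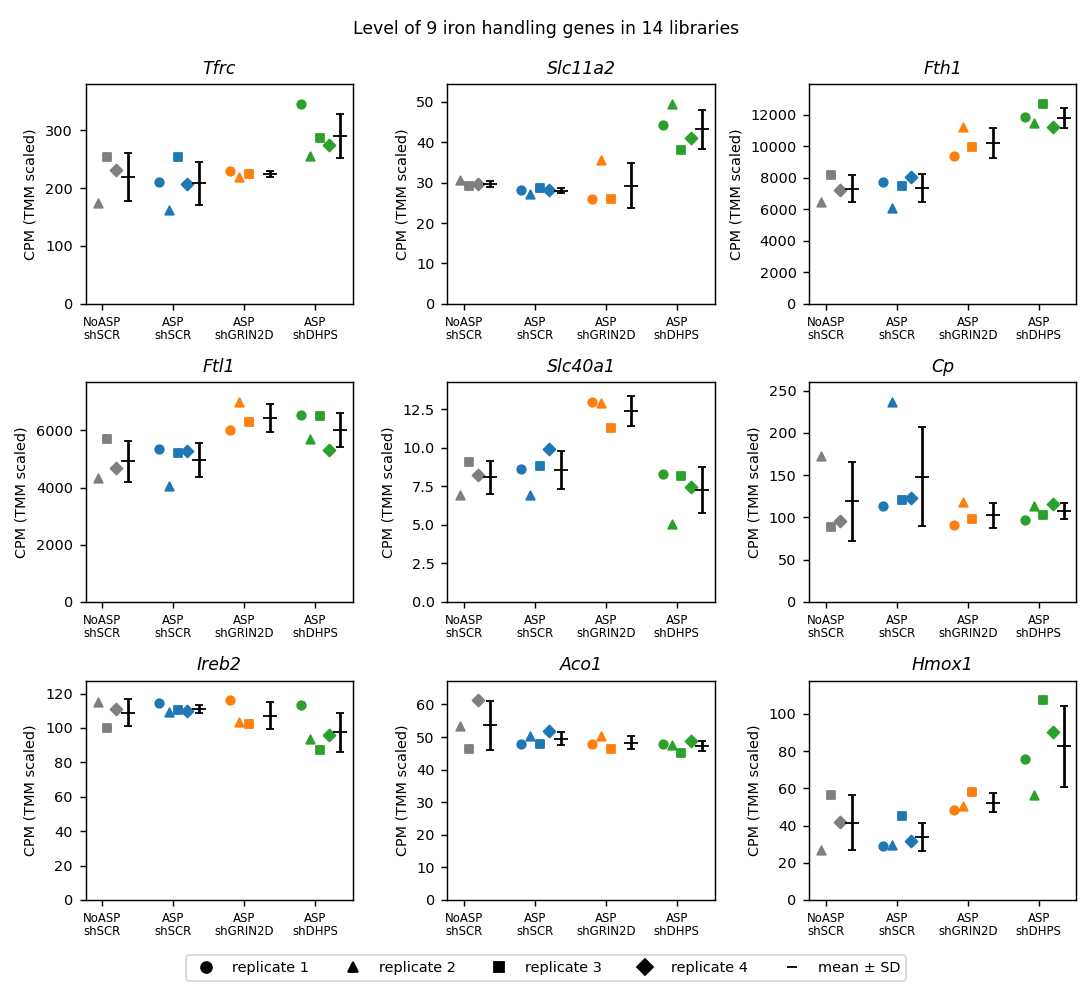
Level of each of the 9 genes in CPM (y axis, from 0) by group (x axis), 1 symbol per library with its shape giving the replicate number, and the group mean with SD as a black bar. Hmox1, Fth1, Slc11a2 and Tfrc sit higher in ASP shDHPS than in ASP shSCR without overlap, and Slc40a1 is highest in ASP shGRIN2D at 11.3 to 12.9 CPM.

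Knockdown of Dhps was accompanied by higher levels of a heme-degrading enzyme, a ferritin chain and both importers. Hmox1, Fth1, Slc11a2 and Tfrc rose, which makes 4 of the 8 tested members, whereas 1.65% of all 19525 genes were called higher. None of the 8 was called lower, against 2.57% of all genes. Groups did not overlap for these 4 members, all higher, beside 7.88% (higher) and 8.85% (lower) of the 10224 genes that averaged 5 CPM or more. The median log2 difference of the 8 was 0.38, beside 0.0046 over all genes.

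Hmox1, heme oxygenase 1, releases iron from heme. Its levels were 29.3, 29.7, 45.2 and 31.7 CPM in ASP shSCR replicates 1 to 4 and 75.8, 56.5, 107 and 90.5 CPM in ASP shDHPS replicates 1 to 4. Every ASP shDHPS library lay above every ASP shSCR library, and the spread within ASP shDHPS was the wider. The log2 difference was 1.28 (SE 0.19), a 2.43-fold increase (edgeR, Benjamini-Hochberg adjusted p = 0.000514), and the gene stayed called under 17 of 17 alternatives.

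Fth1, the ferritin heavy chain, oxidises ferrous iron on its way into the ferritin shell. It was at 7746, 6078, 7487 and 8058 CPM in the ASP shSCR libraries and at 11844, 11466, 12665 and 11214 CPM in the ASP shDHPS libraries, again without overlap. The increase was 1.61-fold (log2 0.68, SE 0.10; edgeR, Benjamini-Hochberg adjusted p = 0.000363) and held in 18 of 18 alternatives. Ftl1, the light chain, which has no ferroxidase centre, was at 5342, 4069, 5207 and 5269 CPM in ASP shSCR and at 6537, 5706, 6511 and 5327 CPM in ASP shDHPS. The Ftl1 groups overlapped by a single value, and the difference did not pass the test (log2 0.28, SE 0.11; edgeR, Benjamini-Hochberg adjusted p = 0.152).

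Slc11a2 carries ferrous iron across the endosomal membrane. It was tightly grouped in ASP shSCR, at 28.1, 27.1, 28.6 and 28.1 CPM, and reached 44.3, 49.4, 38.1 and 41.1 CPM in ASP shDHPS. This is a 1.54-fold increase (log2 0.63, SE 0.11; edgeR, Benjamini-Hochberg adjusted p = 0.00186), kept under 17 of 17 alternatives. Tfrc is the transferrin receptor and the member in which the search matched hairpins in the 3′ UTR. It was at 211, 162, 253 and 207 CPM in ASP shSCR and at 345, 256, 287 and 275 CPM in ASP shDHPS.

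The highest ASP shSCR value of Tfrc lay just under the lowest of ASP shDHPS. The difference was 1.39-fold (log2 0.48, SE 0.12; edgeR, Benjamini-Hochberg adjusted p = 0.0288). This call was lost without ASP shSCR replicate 1, 2 or 4 or without ASP shDHPS replicate 1 or 3 (edgeR, Benjamini-Hochberg adjusted p = 0.0512 to 0.101), and without ASP shSCR replicate 2 the log2 difference was 0.38. Tfrc was also the member that followed the first principal component most closely (r = 0.96 over 14 libraries that share groups and depth, a description).

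The exporter and the regulatory proteins did not pass the test in this comparison. Slc40a1 was at 8.61, 6.91, 8.82 and 9.90 CPM in ASP shSCR and at 8.30, 5.06, 8.16 and 7.47 CPM in ASP shDHPS, with overlap (log2 -0.23, SE 0.16; edgeR, Benjamini-Hochberg adjusted p = 0.444). Ireb2 averaged 111 CPM (SD 2.42, n = 4) in ASP shSCR against 97.5 CPM (SD 11.3, n = 4) in ASP shDHPS (log2 -0.19, SE 0.088; edgeR, Benjamini-Hochberg adjusted p = 0.249). Aco1, which is cytosolic aconitase when it holds an iron-sulfur cluster, averaged 49.5 ± 1.94 CPM (SD, n = 4) and 47.4 ± 1.56 CPM (SD, n = 4) in the same groups (log2 -0.06, SE 0.090; edgeR, Benjamini-Hochberg adjusted p = 0.754). Over the 14 libraries Aco1 lay between 45.2 and 61.2 CPM, with the highest value in NoASP shSCR replicate 4. In bulk RNA, fewer cells of a kind and less RNA per cell cannot be told apart.

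**Figure D2:**
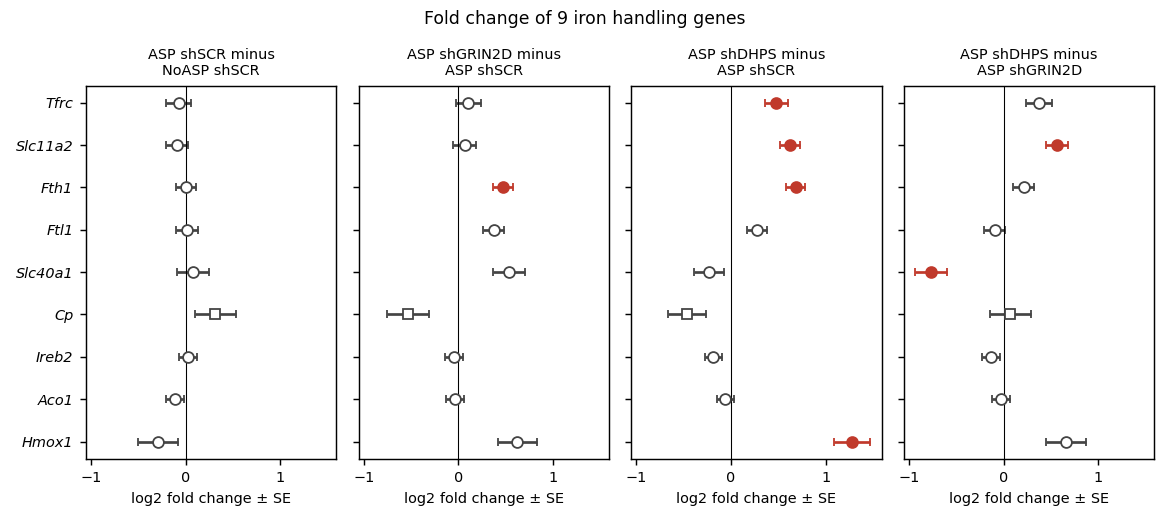
Log2 fold change with its standard error (x axis) for the 9 genes (y axis) in 4 comparisons, with filled red symbols for an edgeR Benjamini-Hochberg adjusted p under 0.05 and a square for Cp, which was not tested. The number of filled symbols is 0 for aspartate, 1 for the Grin2d knockdown, 4 for the Dhps knockdown and 2 for the Dhps against the Grin2d knockdown.

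Knockdown of Grin2d was compared with the same ASP shSCR libraries, so its values are not independent of those above. Fth1 was called higher, 1 of 8 tested members beside 0.425% of all genes, and none was called lower beside 0.732% of all genes. Fth1 reached 9383, 11244 and 9971 CPM in ASP shGRIN2D replicates 1 to 3, above all 4 ASP shSCR libraries (1.39-fold; log2 0.47, SE 0.11; edgeR, Benjamini-Hochberg adjusted p = 0.0250). The call was lost without ASP shSCR replicate 2 or 3 or without any 1 ASP shGRIN2D library (edgeR, Benjamini-Hochberg adjusted p = 0.0525 to 0.193). The summed epithelial markers were lowest in this group, as given above, and whether this bears on Fth1 was not tested.

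Ftl1, Slc40a1 and Hmox1 lay above ASP shSCR in every ASP shGRIN2D library without passing the test in the fit of all 14 libraries. Ftl1 was at 6020, 6982 and 6305 CPM (log2 0.37, SE 0.11; edgeR, Benjamini-Hochberg adjusted p = 0.149). Slc40a1 was at 12.9, 12.9 and 11.3 CPM (log2 0.54, SE 0.17; edgeR, Benjamini-Hochberg adjusted p = 0.160). Hmox1 was at 48.2, 50.7 and 58.1 CPM (log2 0.62, SE 0.21; edgeR, Benjamini-Hochberg adjusted p = 0.202). A fit of only these groups called Ftl1 and Hmox1 (edgeR, Benjamini-Hochberg adjusted p = 0.0470 and 0.0163), and DESeq2 called Ftl1 (Benjamini-Hochberg adjusted p = 0.0488). These groups did not overlap for 4 members in the higher direction, beside 7.65% of the same 10224 genes, and for none in the lower direction, beside 9.46%.

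The importers and regulatory proteins stayed near their control levels. Tfrc was at 229, 219 and 224 CPM, within the ASP shSCR range (log2 0.10, SE 0.13; edgeR, Benjamini-Hochberg adjusted p = 0.845). Slc11a2 was at 26.1, 35.7 and 26.1 CPM, with replicate 2 above and the others below all ASP shSCR values (log2 0.07, SE 0.12; edgeR, Benjamini-Hochberg adjusted p = 0.913). Ireb2 lay between 102 and 116 CPM and Aco1 between 46.5 and 50.4 CPM, each overlapping ASP shSCR.

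The knockdowns were then compared with each other, which leaves the shSCR libraries out of the contrast. Slc11a2 was higher and Slc40a1 lower in ASP shDHPS than in ASP shGRIN2D, which is 1 of 8 members in each direction, beside 1.2% of all genes called higher and 1.62% called lower. Groups did not overlap for Slc11a2 and Tfrc (higher) and for Slc40a1 (lower), beside 11.2% and 10.3% of the 10224 genes. For Slc11a2 the means were 43.2 CPM (SD 4.84, n = 4) and 29.3 CPM (SD 5.56, n = 3), and the lowest ASP shDHPS library (38.1 CPM) exceeded the highest ASP shGRIN2D library (35.7 CPM). The difference was 1.47-fold (log2 0.56, SE 0.12; edgeR, Benjamini-Hochberg adjusted p = 0.00812).

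The mean of Slc40a1 was 12.4 CPM (SD 0.957, n = 3) after Grin2d knockdown and only 7.25 CPM (SD 1.50, n = 4) after Dhps knockdown, a log2 difference of -0.77 (SE 0.17; edgeR, Benjamini-Hochberg adjusted p = 0.0121). Its groups were separated by 8.30 and 11.3 CPM. The call for Slc40a1 was lost without ASP shGRIN2D replicate 1 or 2 (edgeR, Benjamini-Hochberg adjusted p = 0.0792 and 0.0598), and that for Slc11a2 without replicate 1 or 3 (edgeR, Benjamini-Hochberg adjusted p = 0.0953 and 0.0800). Hmox1 was 1.58-fold higher in ASP shDHPS with an SE of 0.21 on the log2 scale, but overlapped and did not pass (log2 0.66; edgeR, Benjamini-Hochberg adjusted p = 0.0971). Without ASP shDHPS replicate 2, its lowest library, Hmox1 passed (log2 0.80; edgeR, Benjamini-Hochberg adjusted p = 0.0340), as it did in a fit of only these groups (edgeR, Benjamini-Hochberg adjusted p = 0.00902). Tfrc was 1.30-fold higher without overlap (log2 0.38, SE 0.13; edgeR, Benjamini-Hochberg adjusted p = 0.159), and Fth1 overlapped (log2 0.21, SE 0.11; edgeR, Benjamini-Hochberg adjusted p = 0.367).

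The make-up of ferritin mRNA was compared between groups as a description. Fth1 and Ftl1 together held 1.24 ± 0.136% of all counts (SD, n = 4) in ASP shSCR, 1.24 ± 0.143% (SD, n = 3) in NoASP shSCR, 1.64 ± 0.136% (SD, n = 3) in ASP shGRIN2D and 1.77 ± 0.0980% (SD, n = 4) in ASP shDHPS. The ratio of Fth1 to Ftl1 counts, which was chosen after its values were seen and was not tested, was 1.45, 1.49, 1.44 and 1.53 in ASP shSCR and 1.49, 1.44 and 1.55 in NoASP shSCR. It was 1.56, 1.61 and 1.58 in ASP shGRIN2D and 1.81, 2.01, 1.95 and 2.11 in ASP shDHPS. The 4 ASP shDHPS libraries thus stood above the other 10 in this ratio, while their ferritin share overlapped that of ASP shGRIN2D. The ratio held its value in ASP shSCR replicate 2 (1.49), although both ferritin transcripts were lowest there. A change of both chains by the same factor would leave the ratio as it was.

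**Figure D3:**
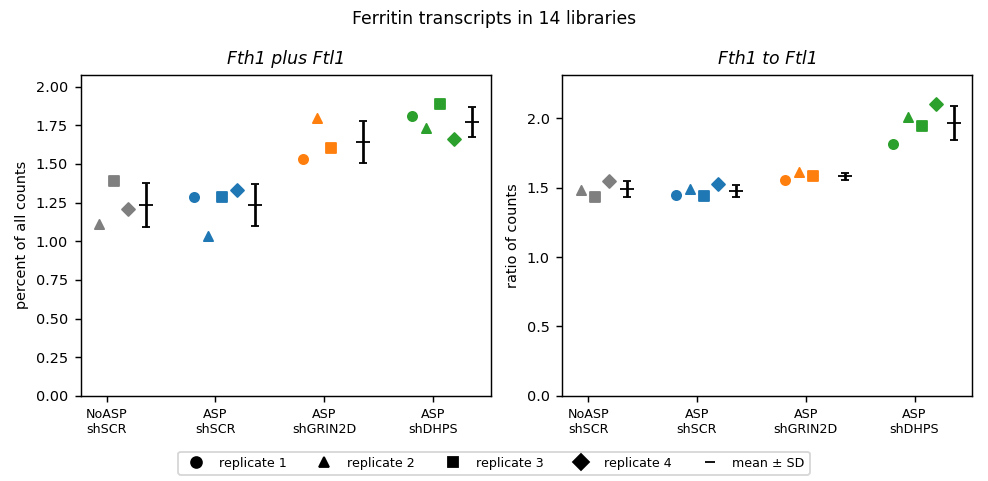
Share of all counts held by Fth1 and Ftl1 in percent (left) and the ratio of Fth1 to Ftl1 counts (right) in each library by group, both axes starting at 0, with mean and SD in black. The share is higher in both knockdown groups than in either shSCR group, and the ratio is highest in ASP shDHPS, at 1.81 to 2.11.

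Adding aspartate left all tested members without a call. Between ASP shSCR and NoASP shSCR, 0 of 8 members and 0% of all genes were called by edgeR, with 424 genes at an unadjusted p under 0.05 and 0 genes called by DESeq2, and 0 of the 8 members were below an unadjusted p of 0.05. The median log2 difference of the 8 was -0.03, beside 0.00087 over all genes. Fth1 averaged 7342 CPM (SD 874, n = 4) in ASP shSCR against 7307 CPM (SD 867, n = 3) in NoASP shSCR (log2 0.01, SE 0.11). Ftl1 averaged 4972 CPM (SD 605) against 4915 CPM (SD 712) in the same groups (log2 0.02, SE 0.11).

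Tfrc was at 174, 254 and 231 CPM in NoASP shSCR replicates 2 to 4 (log2 -0.08, SE 0.13), and Slc40a1 at 6.96, 9.08 and 8.23 CPM (log2 0.08, SE 0.17). Hmox1 ranged widely without aspartate, at 26.7, 56.5 and 41.7 CPM, and its fold change has a large error (log2 -0.29, SE 0.21). Ireb2 (log2 0.03, SE 0.095) and Aco1 (log2 -0.12, SE 0.097) overlapped between the groups. Slc11a2 did not overlap, at 30.6, 29.1 and 29.6 CPM without aspartate and 27.1 to 28.6 CPM with it, beside 0.939% of the 10224 genes that separated in this direction and 0.968% in the other. The Slc11a2 difference was small (log2 -0.09, SE 0.12), and edgeR gave a Benjamini-Hochberg adjusted p of 1 for all 8 genes. With the replicate number as a block, edgeR called 2 of all genes and none of the 8 members.

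Cp encodes ceruloplasmin, a copper enzyme that oxidises ferrous iron leaving the cell through ferroportin, and is best known as a plasma protein made by the liver. In ASP shSCR it was at 113, 236, 120 and 123 CPM, in NoASP shSCR at 173, 89.1 and 95.4 CPM, in ASP shGRIN2D at 90.5, 119 and 97.8 CPM and in ASP shDHPS at 96.9, 114, 103 and 116 CPM. Both high values, 236 and 173 CPM, belong to the shSCR libraries numbered 2 that stand apart on the first principal component, and the other 12 libraries lay between 89.1 and 123 CPM. In order of their means the groups were ASP shSCR (148 ± 58.7 CPM, SD, n = 4), NoASP shSCR (119 ± 46.7, n = 3), ASP shDHPS (108 ± 9.07, n = 4) and ASP shGRIN2D (102 ± 14.6, n = 3), and every pair of neighbours overlapped.

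Same-numbered libraries could be set side by side for aspartate. Cp was 1.37, 1.35 and 1.29 times as high with aspartate as without it in replicates 2, 3 and 4. Tfrc (0.930, 0.997 and 0.900) and Slc11a2 (0.885, 0.983 and 0.951) also kept their direction in these pairs, both lower with aspartate. The remaining members did not. The fold change of Cp between the groups was log2 0.31 (SE 0.22), or 0.38 with the replicate block and 0.36 with the libraries numbered 2 left out of both groups. It came to -0.0033 without ASP shSCR replicate 2 alone and to 0.68 without NoASP shSCR replicate 2 alone. The fold change of Cp between the groups as a whole thus moved with whether 1 library was in it.

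Against ASP shSCR, Cp differed by log2 -0.53 (SE 0.22) in ASP shGRIN2D and by -0.46 (SE 0.20) in ASP shDHPS. Without ASP shSCR replicate 2 these were -0.22 and -0.14. Between the knockdowns the difference was 0.07 (SE 0.22). Cp had the largest spread within groups of the 9 members, with an SD of 0.38 on the log2 scale, followed by Hmox1 (0.37), whereas Aco1 had the smallest (0.10).

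Genes whose log2 CPM followed Cp most closely over the 14 libraries were Dtx3l, a ubiquitin ligase (Pearson r = 0.97, Spearman rho = 0.91), Ltbp2, an extracellular matrix protein (0.96 and 0.85), the adhesion molecule Vcam1 (0.94 and 0.74), the transcription factor Irf1 (0.94 and 0.63) and the apoptosome component Apaf1 (0.93 and 0.85), out of 9804 candidates. Those least alike were Mat2a, which makes S-adenosylmethionine (-0.96 and -0.82), Ythdf1, a reader of methylated RNA (-0.95 and -0.78), and Klhdc3, a substrate adaptor of a ubiquitin ligase (-0.94 and -0.78). In the 12 libraries other than the shSCR libraries numbered 2, r fell to 0.83 for Dtx3l, 0.82 for Ltbp2, 0.58 for Vcam1 and Irf1 and 0.72 for Apaf1, and it was -0.72 for Mat2a, -0.71 for Ythdf1 and -0.70 for Klhdc3. These are descriptions over libraries that share groups.

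Other genes of iron metabolism were taken from 9 lists, 89 genes measured in all. After knockdown of Dhps 6 were called higher and 4 lower, beside the 1.65% and 2.57% of all genes given above, with a median log2 difference of 0.07. Steap3, the endosomal ferrireductase that works upstream of Slc11a2, rose from 35.1 ± 2.04 to 49.5 ± 6.06 CPM (SD, n = 4 each; log2 0.50, SE 0.099; edgeR, Benjamini-Hochberg adjusted p = 0.00537) and was called under 17 of 17 alternatives. Slc39a8, a zinc transporter that also carries iron, rose from 4.42 ± 0.207 to 6.58 ± 0.416 CPM (log2 0.57, SE 0.16; edgeR, Benjamini-Hochberg adjusted p = 0.0420).

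Steap2, another metalloreductase, fell from 140 ± 16.1 to 103 ± 14.1 CPM (log2 -0.44, SE 0.12; edgeR, Benjamini-Hochberg adjusted p = 0.0336). Scara5, a scavenger receptor that takes up ferritin, fell from 159 ± 4.81 to 126 ± 12.6 CPM (log2 -0.34, SE 0.091; edgeR, Benjamini-Hochberg adjusted p = 0.0340). The uptake list as a whole thus had 2 higher and 2 lower of 14 measured.

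Heme transport and breakdown had 2 called higher and none lower of 10 measured, and the 2 are both heme carriers. Slc48a1, which moves heme out of endosomes and lysosomes, went from 215 ± 27.3 to 293 ± 24.1 CPM (log2 0.45, SE 0.10; edgeR, Benjamini-Hochberg adjusted p = 0.0133). Flvcr1, described as a heme exporter and as a choline transporter, went from 30.6 ± 4.04 to 41.8 ± 2.49 CPM (log2 0.45, SE 0.11; edgeR, Benjamini-Hochberg adjusted p = 0.0231). Heme synthesis had none called of 12 measured in the edgeR fit of all 14 libraries, with a median log2 difference of 0.13.

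Of the iron-sulfur cluster genes, 1 of 22 mitochondrial genes and 1 of 10 cytosolic genes were called, each higher. Iscu, the scaffold on which clusters are built, went from 27.9 ± 2.80 to 36.9 ± 1.86 CPM (log2 0.40, SE 0.097; edgeR, Benjamini-Hochberg adjusted p = 0.0181). Nubp2, a cytosolic scaffold subunit, went from 32.9 ± 4.06 to 44.8 ± 3.09 CPM (log2 0.45, SE 0.11; edgeR, Benjamini-Hochberg adjusted p = 0.0229). None was called of the 7 regulators of the iron regulatory proteins and of heme-responsive transcription, Fbxl5, Bach1 and Nfe2l2 included, or of the 4 measured genes for storage and ferritin turnover. The remaining 2 calls of the edgeR fit were lower at very low counts: Tmprss6, 1 of 4 measured genes for ferroxidases and control of export (0.17 against 1.70 CPM), and Epas1, 1 of 6 other transcripts known for an iron-responsive element (0.040 against 0.75 CPM).

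Several of these calls rested on single libraries. Without ASP shSCR replicate 2, 3 of the 89 genes were called, and without ASP shDHPS replicate 3, 5 were. Slc39a8 lost its call without any of the 8 libraries of the contrast (edgeR, Benjamini-Hochberg adjusted p = 0.0544 to 0.122), and Slc48a1, Flvcr1, Iscu, Nubp2, Steap2 and Scara5 each lost it without ASP shSCR replicate 2 (edgeR, Benjamini-Hochberg adjusted p = 0.0527, 0.0889, 0.0704, 0.0862, 0.124 and 0.0846). Other libraries whose absence ended a call were ASP shDHPS replicate 3 for Slc48a1 (0.0611), ASP shDHPS replicate 4 for Flvcr1 (0.0566), ASP shSCR replicate 3 and ASP shDHPS replicate 2 for Iscu (0.0513 and 0.0537), and ASP shSCR replicate 1 and ASP shDHPS replicate 3 for Nubp2 (0.0526 and 0.0771). For Steap2 they were ASP shSCR replicate 1 and ASP shDHPS replicates 2 and 3 (0.0512 to 0.137), and for Scara5 all but ASP shDHPS replicate 2 (0.0526 to 0.0937). In a fit of only these groups Scara5 and Slc39a8 also lost their calls (edgeR, Benjamini-Hochberg adjusted p = 0.0564 and 0.0577). Calls were gained as well. DESeq2 called 8 higher and 5 lower, among them Urod (heme synthesis) and Glrx5 higher and Abcb8 lower (Benjamini-Hochberg adjusted p = 0.0445, 0.0281 and 0.0215). The replicate block called 12 higher and 7 lower, among them Tmem14c (heme synthesis) higher and Pcbp2 (storage) lower (edgeR, Benjamini-Hochberg adjusted p = 0.0247 and 0.0444).

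**Figure D4:**
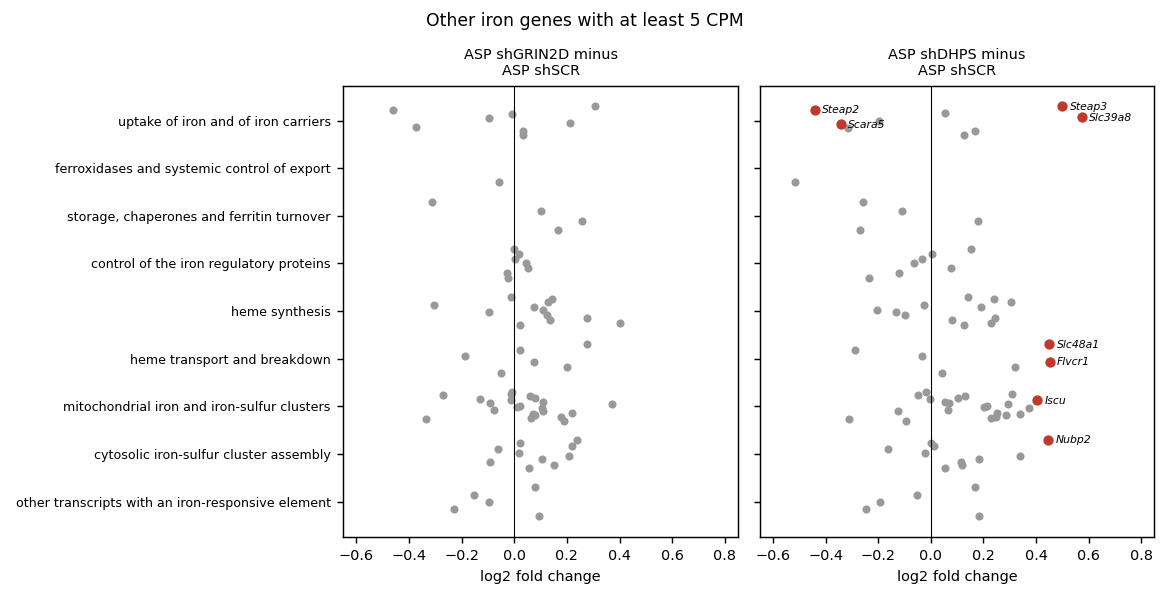
Log2 fold change (x axis) of the other iron genes that averaged 5 CPM or more in the higher group, by list (y axis), for the Grin2d knockdown (left, 75 genes) and the Dhps knockdown (right, 76 genes), with genes past an edgeR Benjamini-Hochberg adjusted p of 0.05 in red and named. No gene at this level is named on the left and 8 are on the right.

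After knockdown of Grin2d, 0 of the 89 genes were called higher and 1 lower, Tmprss6, a protease at 0.38 CPM against 1.70 CPM in ASP shSCR, with a median log2 difference of 0.03, beside 0.425% of all genes called higher and 0.732% lower. Without ASP shSCR replicate 3 or 4, or without any 1 ASP shGRIN2D library, 0 of the 89 were called. DESeq2 called Steap2 as well (log2 -0.46; Benjamini-Hochberg adjusted p = 0.0304), and a fit of only these groups called Steap2 and Pcbp2, an iron chaperone, both lower (edgeR, Benjamini-Hochberg adjusted p = 0.00839 and 0.0456). With the shSCR libraries numbered 2 left out, the 1 gene called was Steap4, a metalloreductase, in place of Tmprss6, higher at a mean of 2.09 CPM (log2 3.14, SE 0.58; edgeR, Benjamini-Hochberg adjusted p = 0.00473). Between the knockdowns 2 of the 89 were higher and 2 lower in ASP shDHPS, beside the 1.2% and 1.62% of all genes given above. Slc39a8 (3.79 ± 0.770 CPM in ASP shGRIN2D) and Iscu (27.7 ± 0.685 CPM) were higher in ASP shDHPS, by log2 0.79 (SE 0.18) and 0.42 (SE 0.11), with edgeR Benjamini-Hochberg adjusted p of 0.0132 and 0.0324. Scara5 (184 ± 18.7 CPM) and Herc2 (55.5 ± 3.77 CPM), a ubiquitin ligase linked to turnover of the ferritin receptor Ncoa4, were lower, by log2 -0.55 (SE 0.097) and -0.44 (SE 0.12), with edgeR Benjamini-Hochberg adjusted p of 0.00199 and 0.0445.

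Scara5 was called under 15 of 15 alternatives of the comparison between knockdowns. Slc39a8 lost its call without ASP shGRIN2D replicate 1 or 3 (edgeR, Benjamini-Hochberg adjusted p = 0.0932 and 0.100), and Iscu and Herc2 lost theirs without any 1 ASP shGRIN2D library (0.0905 to 0.164 and 0.0845 to 0.251). Iscu also lost it without ASP shDHPS replicate 1 or 2 (0.0533 and 0.0857), and Herc2 without ASP shDHPS replicate 1, 2 or 3 (0.0703 to 0.106) and with scaling by library size only (0.0725). With aspartate, 0 of the 89 genes were called by DESeq2 or by edgeR without the replicate block, and 4 were below an unadjusted p of 0.05 in edgeR. The block in the fit of all 14 libraries also called 0 of the 89. With the block in a fit of the 7 shSCR libraries, added after seeing the data, 1 of the 89 was called, Lcn2, the siderophore-binding lipocalin 2. Its log2 difference there was 0.71 (SE 0.077; edgeR, Benjamini-Hochberg adjusted p = 1.33e-16). Only replicates 2, 3 and 4 have a partner in that fit, which leaves few libraries to estimate the spread, so the size of this p-value is no measure of strength. Without the block the log2 difference of Lcn2 was 0.64 (SE 0.33; edgeR, unadjusted p = 0.0678). Its levels overlapped between ASP shSCR (51.0 to 187 CPM) and NoASP shSCR (34.4 to 109 CPM).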

How the data were processed

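Counts of polyadenylated RNA from 14 libraries were analysed. According to the submitters' processing notes and the study's methods, the authors trimmed reads with Trim Galore 0.6.6, mapped them to GRCm39 with STAR 2.6.1, estimated abundance with Salmon 1.4.0 and deposited rounded counts for 19525 genes. Salmon divides reads among near-identical copies by estimation, which bears on ferritin and its pseudogenes. Deposited tables of fold changes, p-values and gene set scores for the aspartate comparison were not used.

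edgeR 4.0.16 in R 4.3.3 was run on the counts (TMM, quasi-likelihood, all 14 libraries, group as the only term), with Benjamini-Hochberg adjustment over 19525 genes and a threshold of 0.05. It was also run on simulated counts with known changes in ASP shDHPS. There the libraries were drawn independently, so the simulation does not cover libraries that deviate together. CPM were TMM scaled, and log2 CPM used a prior count of 2. Members, lists and rules were chosen with earlier results of these data known. Beyond the members, genes were named that passed the threshold and averaged 5 CPM or more in the higher group, up to 8 per comparison, and the 5 genes most and 3 least alike Cp. Genes below that mean that made up a count were named after their values were seen.

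Alternatives were DESeq2 1.42.0, RLE size factors, library size only, a robust prior, filterByExpr (which kept 13421 genes), a fit of the compared groups alone, a block for the replicate number, pseudogene counts added and each library left out. The block within 2 groups and leaving out the shSCR libraries numbered 2 were added after seeing the data. Across genes, libraries with the same number deviated together from the means of ASP shSCR and NoASP shSCR (r = 0.51, 0.29 and 0.20, each over 0.1), so these were taken as paired from the data. What the numbers mean is not given in the sources used here. Hairpins came from GENCODE release M21 (GRCm38), with 1 transcript per gene for lengths.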

Additional observations from a re-analysis of the deposited data

Results flagged for a closer look

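In 2 of 16 combinations of a tested member and a group of 4 libraries, 1 library lay far from the others by Dixon's test at the 95% level, which by chance flags about 1 in 20 groups. Ftl1 was at 4069 CPM in ASP shSCR replicate 2, with the others between 5207 and 5342 CPM. Hmox1 was at 45.2 CPM in ASP shSCR replicate 3, with the others between 29.3 and 31.7 CPM. The Ftl1 value belongs to a library that also stood apart on the first principal component (-31.8), and whether the values are linked was not tested. Cp, which was selected on its values, was not tested in this way.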

How the results depend on the processing

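Fth1, Hmox1 and Slc11a2 were called in the Dhps knockdown under every alternative run, and no called fold change turned its sign. The aspartate comparison called 2 genes with the replicate block and 64 with the block in a fit of its 7 libraries, and 0 to 1 with each library left out. For the Grin2d knockdown (226 genes), DESeq2 called 440, a fit of the 2 groups 374, the block 611 and the block within the 2 groups 363, and leaving out a library gave 86 to 208. Of the 8 tested members, 2, 3, 4 and 4 were called under these 4 settings in place of 1, and 0 to 1 with a library left out. For the Dhps knockdown (824 genes) the counts were 1398 with DESeq2, 2150 with the block, 2026 with the block within the 2 groups and 412 to 894 with a library left out, and 3 to 5 members were called in place of 4. For Dhps against Grin2d (550 genes) they were 920, 1468, 1527 and 209 to 577, with 4 members called under both block fits in place of 2 and 0 to 3 with a library left out. The members added by the block were Ftl1, Slc40a1 and Hmox1 in the Grin2d knockdown (edgeR, Benjamini-Hochberg adjusted p = 0.0121, 0.0214 and 0.000179), Ftl1 in the Dhps knockdown (0.0202) and Hmox1 and Tfrc between the knockdowns (0.000600 and 0.0131). Of the 89 other iron genes, the block called 4 in place of 1, 19 in place of 10 and 7 in place of 4 in these comparisons, and the block within the 2 groups 3, 19 and 9. Same-numbered libraries of the knockdown comparisons correlated at -0.12 to 0.26 and were not taken as paired, although ASP shDHPS replicates 1, 2 and 3 each correlated best with their own number in ASP shSCR. With fewer libraries in a group the test has less power, and the cause of the other shifts was not tested. At 76 to 251 counts per library, Slc40a1 is the member on which depth bears most.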
